A study of Xenopus laevis with 2 samples.

Results

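Chromatin genes encode the proteins that package DNA and mark it. Their transcripts were examined in tissue cut from the dorsal posterior end of Xenopus laevis neurulae, where by the labels most cells are mesoderm. A probe set (a group of short probes that reads a transcript) was taken as a member where its only platform gene symbol, without the .L or .S suffix, began with a name of a chromatin family, such as smarc, chd, ezh, hdac, kdm, kmt, dnmt, hmgb or cbx. The rule found 106 probe sets for 82 of the 7531 genes with a probe set of their own on the array, under 70 different names once .L and .S were set aside. The suffixes mark the copies from the long and short subgenomes of this allotetraploid frog.

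Of the 2 arrays, 1 came from embryos labelled Derriere depleted. They had received 2 ng of an antisense morpholino against the TGF-beta family ligand Derriere (gdf3), with GFP, in both dorsal cells of 4-cell embryos. The other array came from embryos labelled wildtype, and the labels do not say whether these were injected. All pieces were taken at stage 18, no transgene or other genotype is named, and the labels do not say how many embryos were pooled. With 1 array per condition there is no replicate check of any difference below and no p-value, and the number of arrays limits the precision. In such bulk tissue, fewer cells of a type and less RNA per cell cannot be told apart.

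The derriere transcript gdf3.S read 2318.6 in the array with the depleted label and 552.0 in the array with the wildtype label. Its log2 ratio was 2.06, which goes against the direction that a loss of the transcript would give. A morpholino blocks translation or splicing and need not lower its target's RNA, so the labels are not settled by this value. The control probe set for EGFP also ran against the labels, since GFP went in with the morpholino: it read 10, under the floor of 19.7 used here, in the array with the depleted label and 72.7 in the array with the wildtype label. The higher reading too lay under the signal of 74.3 that serves as a filter below. Both readings were thus dim, and they do not settle the labels either. Which form of GFP was injected is not stated. If the labels were exchanged, every direction below would turn round. The arrays are therefore called depleted-labelled and wildtype-labelled, and every ratio below is the depleted-labelled array over the wildtype-labelled array.

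Nucleosome remodellers such as SWI/SNF and the CHD proteins use ATP to slide or evict histones. Polycomb complexes modify histones, in part by methylating histone H3, and keep developmental genes silent. Deacetylases, methyltransferases and demethylases remove, write and erase histone marks. Many of these proteins are loaded into the frog egg and are later made by the embryo itself, and Polycomb and SWI/SNF are known for their part in Hox gene control and in muscle differentiation.

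The chromatin genes differed little between the arrays. Signals here are MAS5 probe set intensities. A probe set was kept where its mean log2 signal of both arrays reached the median over all frog probe sets, a signal of 74.3. A gene was kept where any of its probe sets was, and its log2 ratio is the mean over its kept sets. Of the 82 chromatin genes 63 were kept, and 0 of them were past 1.5-fold, higher or lower, against 5.00% of all 4541 kept genes (1.94% higher and 3.06% lower). At 2-fold the count was also 0 of 63, where 0.595% of all kept genes passed. The median log2 ratio of the 63 was -0.01, with 30 genes above 0 and 33 below, and that of all kept genes was -0.01 as well. The log2 ratios of the chromatin genes ran from -0.43 to 0.53.

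A scale for these differences comes from genes with several probe sets under the same symbol, whose log2 ratios had a pooled SD of 0.228 over 582 genes. Over the 10 chromatin genes among them it was 0.179, and the pooled SD named below is that of 0.228. It holds measurement error within an array and any difference between the transcript forms that the sets read. It says nothing of variation between batches of embryos. Of the 63 chromatin genes 49, or 77.8%, lay within 0.228 on either side of 0, as did 58.3% of all kept genes. The SD of the log2 ratio was 0.20 over the chromatin genes and 0.32 over all kept genes.

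**Figure D1:**
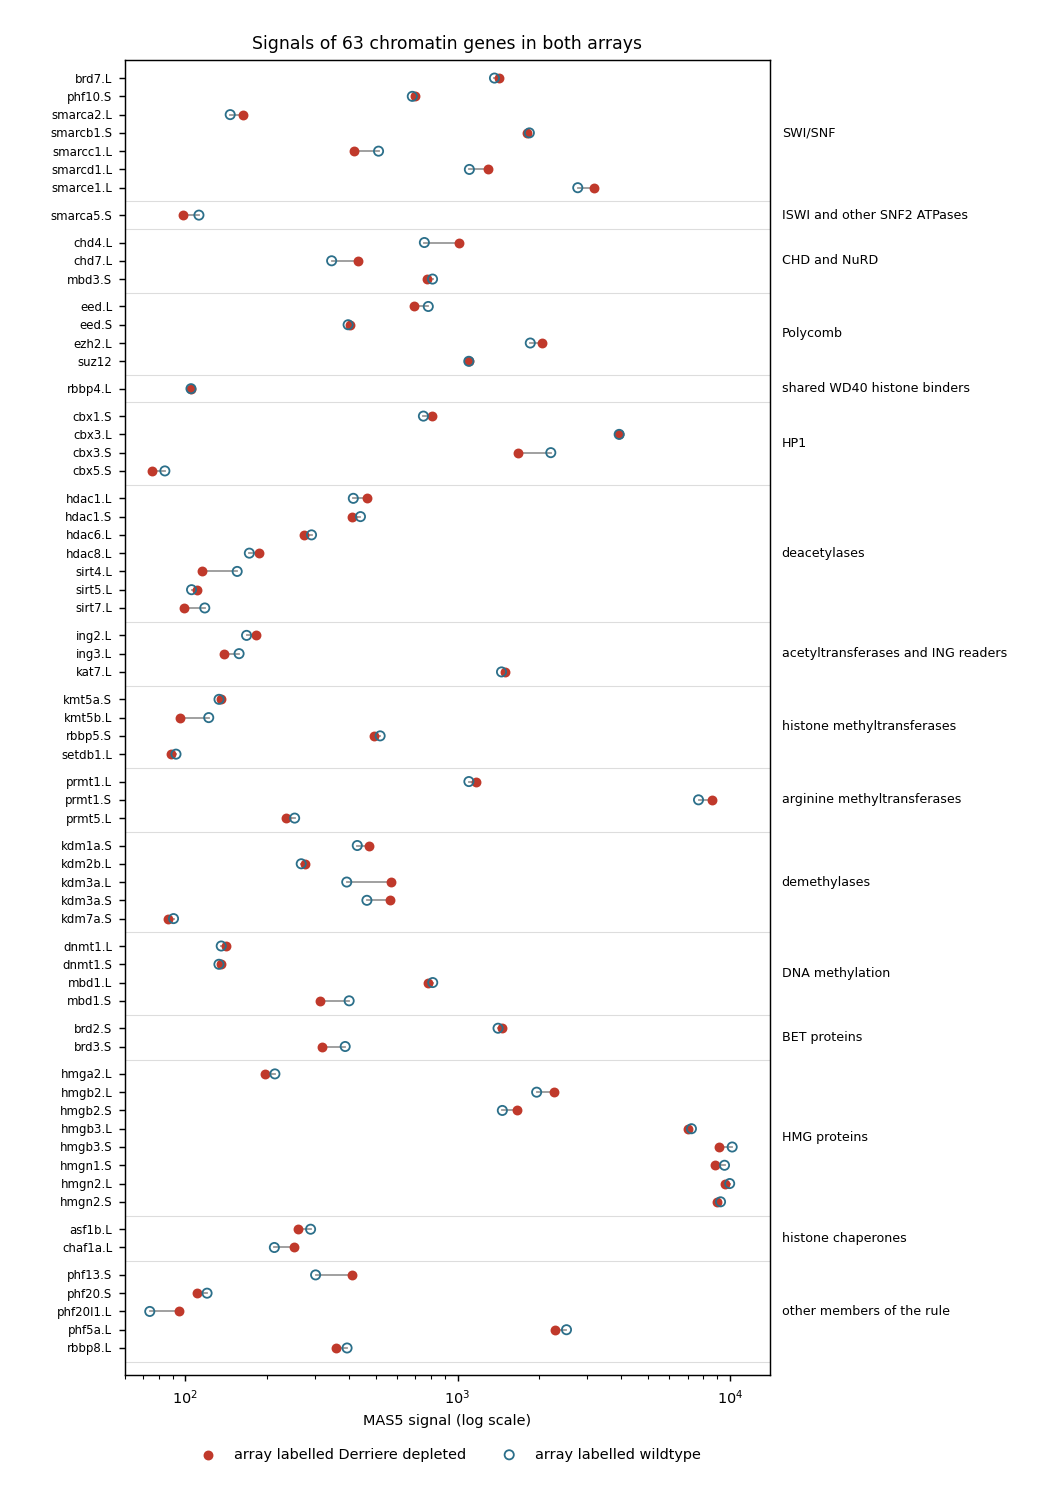
MAS5 signal (log scale) of the 63 kept chromatin genes in the depleted-labelled array (filled red) and the wildtype-labelled array (open blue), grouped by complex; a gene with several kept probe sets is drawn at their geometric mean. The symbols of a gene lie close together, and positions of different genes cannot be compared because each probe set has its own brightness.

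At a lower threshold, a log2 ratio of 0.32 in size, 4 chromatin genes were higher and 4 lower in the depleted-labelled array. Together they made 12.7% of the 63, against 26.1% of all kept genes (11.4% higher and 14.8% lower). The higher ones were kdm3a.L, phf13.S, chd4.L and phf20l1.L, and the lower ones were sirt4.L, cbx3.S, mbd1.S and kmt5b.L. Each of the 8 rests on 1 kept probe set, and they are spread over 7 of the groups described below.

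The noise of an array depends on brightness, so the same counts were read within 4 equal bins of mean signal. In the dimmest bin, up to a signal of 151, 3 of 15 chromatin genes and 35.2% of all genes were past that lower threshold. In the second bin it was 0 of 9 against 29%, and in the third, from 313 to 693, it was 3 of 14 against 22.3%. The brightest bin held 25 of the 63 chromatin genes, of which 2 were past it, against 18.1% of all genes there. The SD of the log2 ratio in the 4 bins, from dim to bright, was 0.19, 0.14, 0.28 and 0.17 for the chromatin genes, and 0.37, 0.32, 0.34 and 0.26 for all genes.

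**Figure D2:**
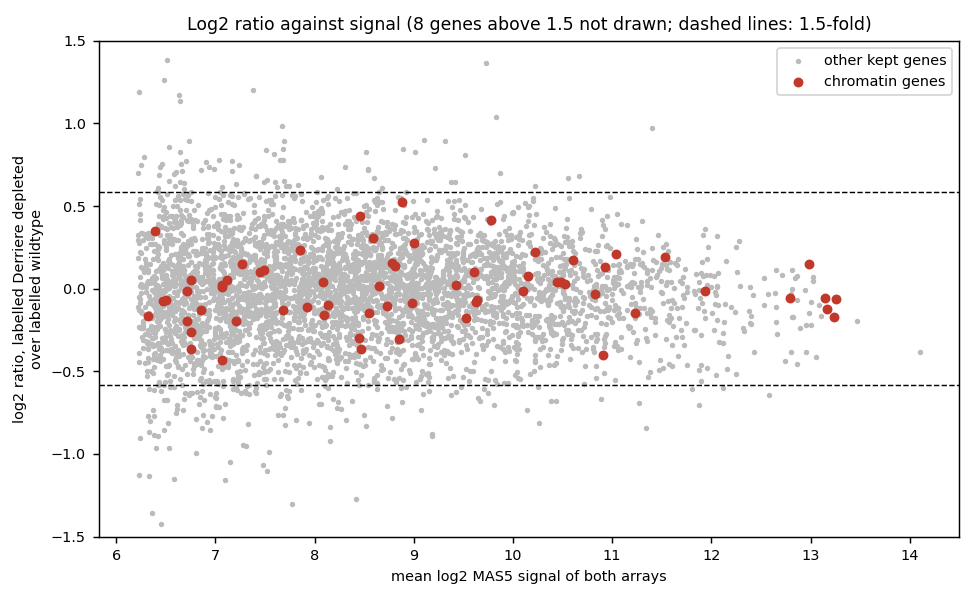
Log2 ratio (depleted-labelled array over wildtype-labelled array) against the mean log2 signal of both arrays for the 63 chromatin genes (red) and the other kept genes (grey); dashed lines mark 1.5-fold, and 8 grey genes above 1.5 are not drawn. All red points lie between the dashed lines.

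The SWI/SNF subunits that the rule takes differed little between the arrays. The ATPase gene smarca2.L read 163.4 in the depleted-labelled array and 146.3 in the wildtype-labelled array, a log2 ratio of 0.15. The core subunit smarcb1.S read 1805.9 and 1835.8 in the same order, a log2 ratio of -0.03. Of the 7 kept subunits 5 were above 0, with a median log2 ratio of 0.04 and a range of -0.31 to 0.22.

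The lowest of them was smarcc1.L, a scaffold subunit, at 417.5 in the depleted-labelled array and 512.9 in the wildtype-labelled array. The highest, smarcd1.L, had 2 probe sets that read 0.19 and 0.25 on the log2 ratio scale. Both sets read the same gene on the same 2 arrays, so their closeness does not repeat the comparison. The HMG-box subunit smarce1.L had a log2 ratio of 0.19, with signals of 3174.8 in the depleted-labelled array and 2764.3 in the wildtype-labelled array. The subunits brd7.L and phf10.S, which belong to the PBAF form of the complex, were flat at log2 ratios of 0.04 and 0.02. Kept SWI/SNF subunits that the rule does not take, named after their values were seen, were all above 0. Their log2 ratios were 0.35 for ss18.L, 0.24 for pbrm1.L and 0.22 for actl6a.S. The ISWI ATPase gene smarca5.S, from a separate remodeller family, read 98.5 in the depleted-labelled array and 112.3 in the wildtype-labelled array, a log2 ratio of -0.20.

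Of the 3 kept genes of the CHD and NuRD group, 1 was past the lower threshold of 0.32 on the log2 scale, against 26.1% of all kept genes. Past 1.5-fold were 0 of the 3, against 5.00% of all kept genes. The signal of chd4.L, the ATPase of the NuRD deacetylase complex, was 1016.1 in the depleted-labelled array and 755.6 in the wildtype-labelled array, a log2 ratio of 0.42 or 1.34-fold. Its NuRD partner mbd3.S did not go with it: the log2 ratio was -0.08 over 3 probe sets, which ranged from -0.22 to 0.01. Kept NuRD partner genes that the rule does not take, named after their values were seen, were all above 0. Their log2 ratios were 0.32 for mta2.S, 0.11 for mta2.L and 0.16 for gatad2a.S. The shared histone binder rbbp4.L, a subunit of NuRD, of Polycomb and of chromatin assembly complexes, read 104.7 in the depleted-labelled array and 105.0 in the wildtype-labelled array.

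The neural crest regulator chd7.L had 3 probe sets that disagreed in size. Their signals were 532.3, 455.2 and 327.7 in the depleted-labelled array and 350.0, 379.1 and 309.3, in the same order of probe sets, in the wildtype-labelled array. The log2 ratios were 0.60, 0.25 and 0.07, with a mean of 0.31. All were above 0, and the one past 1.5-fold stood alone among them.

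The kept Polycomb genes that the rule takes, all from the complex that methylates histone H3, differed little between the arrays. Polycomb genes that the rule does not take are described below, among them the ligase genes ring1.L and rnf2.L and the methyltransferase partner mtf2.S. The gene of the histone H3 methyltransferase ezh2.L read 2039.4 in the depleted-labelled array and 1850.3 in the wildtype-labelled array, a log2 ratio of 0.13. Its partner suz12, which the platform lists without a suffix, read 1097.8 and 1100.2 in the same order of arrays. The third core subunit, eed, was measured in both copies, with log2 ratios of -0.18 for eed.L and 0.02 for eed.S. The median of the 4 genes was 0.00, and all 4 lay within the pooled SD between probe sets, as did 58.3% of all kept genes.

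The chromodomain gene cbx2.L, a Polycomb reader, and phf1.L, an accessory factor of the methyltransferase, were under the signal filter. In cbx2.L the signal was 14.0 in the depleted-labelled array and 33.6 in the wildtype-labelled array. The lower value lies under the floor of 19.7 to which signals were raised, and with the floor the log2 ratio was -0.78, the largest size among the members that were not kept. In phf1.L both readings were under the floor, and they give no direction.

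Genes of HP1, which binds methylated histone H3 in heterochromatin, were divided. The HP1-gamma copy cbx3.S read 1674.5 in the depleted-labelled array and 2200.9 in the wildtype-labelled array, a log2 ratio of -0.40, or 1.32-fold lower. The other copy, cbx3.L, read 3906.5 and 3923.4 in the same order, a log2 ratio of -0.02. A further probe set that names both cbx3 copies went the other way from cbx3.S, with 2533.2 in the depleted-labelled array and 2120.4 in the wildtype-labelled array, a log2 ratio of 0.25. The 3 probe sets for cbx3 thus give no common direction. Log2 ratios of cbx1.S (HP1-beta) and cbx5.S (HP1-alpha) were 0.10 and -0.16.

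**Figure D3:**
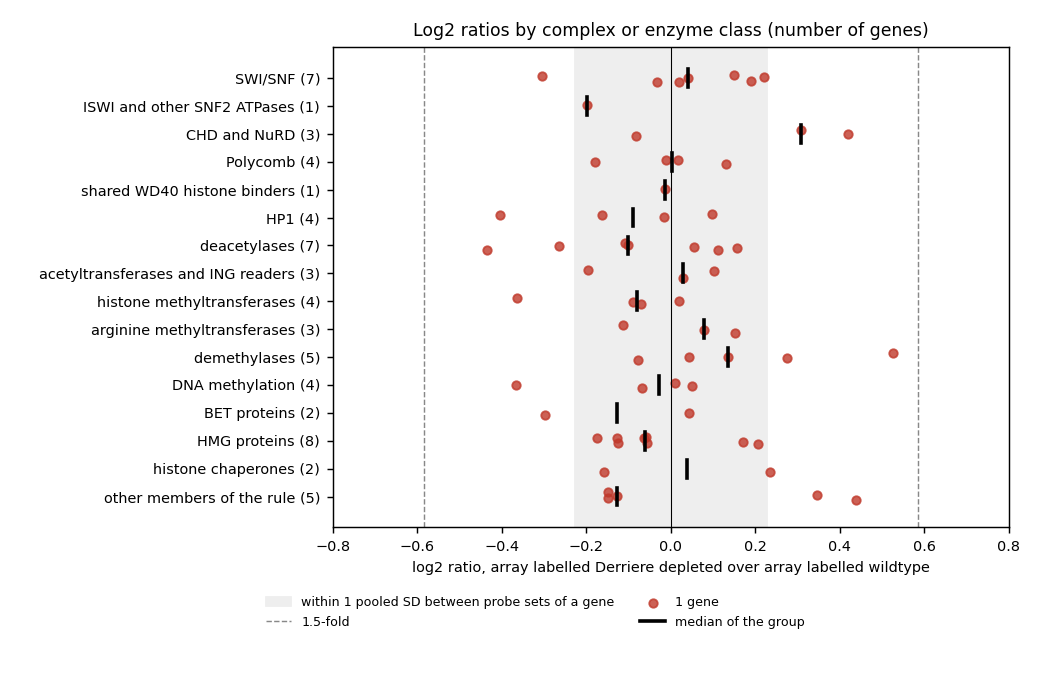
Log2 ratios (depleted-labelled array over wildtype-labelled array) of the 63 kept chromatin genes by complex or enzyme class, with the number of genes in brackets; each point is a gene, the black bar is the group's median, the grey band is the pooled SD of 0.228 between probe sets of a gene, and dashed lines mark 1.5-fold. No point reaches a dashed line, and the points nearest to one are kdm3a.L at 0.53 and phf13.S at 0.44.

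Deacetylase genes had no settled direction. The median log2 ratio of the 7 kept genes was -0.10, with 3 above 0 and 4 below, and it was 0.02 without the signal filter and 0.00 with the brightest probe set of each gene. The class I enzyme hdac1, which serves the NuRD and Sin3 complexes, read 464.9 in the depleted-labelled array and 414.3 in the wildtype-labelled array for hdac1.L, a log2 ratio of 0.16. Its copy hdac1.S had 2 probe sets at log2 ratios of -0.22 and 0.00. The tubulin deacetylase gene hdac6.L and the cohesin deacetylase gene hdac8.L had log2 ratios of -0.10 and 0.11.

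The lowest log2 ratio of the 63 genes was that of sirt4.L, with 115.6 in the depleted-labelled array and 155.2 in the wildtype-labelled array, a log2 ratio of -0.43. This sirtuin acts in mitochondria and not on histones, so it is a member by name and not by role. The mitochondrial sirt5.L and the nucleolar sirt7.L had log2 ratios of 0.05 and -0.27. A second, dimmer probe set of sirt4.L, which was not kept, read 29.2 in the depleted-labelled array and 34.3 in the wildtype-labelled array, a log2 ratio of -0.24.

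Acetyltransferases were represented by few kept genes. The histone acetyltransferase gene kat7.L read 1488.3 in the depleted-labelled array and 1450.7 in the wildtype-labelled array, a log2 ratio of 0.03. A dimmer kat7.L probe set, which was not kept, read 83.2 and 65.1 in the same order, a log2 ratio of 0.34. The ING proteins, which bind methylated histone H3 and bring acetyltransferases or deacetylases to it, were close to 0 too, with ing2.L at a log2 ratio of 0.10 and ing3.L at -0.20.

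Lysine methyltransferase genes outside Polycomb had a median log2 ratio of -0.08 over 4 kept genes. The lowest was kmt5b.L, an enzyme that adds further methyl groups to histone H4, at 95.4 in the depleted-labelled array and 122.0 in the wildtype-labelled array, a log2 ratio of -0.36. Its counterpart kmt5a.S, which places the first methyl group, read 135.8 and 133.1 in the same order. The COMPASS subunit rbbp5.S and the heterochromatin methyltransferase gene setdb1.L had log2 ratios of -0.09 and -0.07. Dimmer probe sets of setdb1.L, which were not kept, had log2 ratios from -0.11 to 0.41.

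Arginine methyltransferases showed how much the choice of probe set matters at this size. The main enzyme gene prmt1.L had 2 probe sets with opposite log2 ratios, 0.29 and -0.13. The first read 314.4 in the depleted-labelled array and 255.2 in the wildtype-labelled array. The second was far brighter, at 4356.8 and 4750.4 in the same order. With each gene's brightest probe set the median of the 3 kept genes of this group turned from 0.08 to -0.11. In prmt1.S the signal was 8574.4 in the depleted-labelled array and 7674.6 in the wildtype-labelled array, a log2 ratio of 0.15. The log2 ratio of prmt5.L, whose enzyme places symmetric methyl groups, was -0.11.

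Demethylase genes held the largest log2 ratio of all chromatin genes. The signal of kdm3a.L, a demethylase of the repressive mark that HP1 reads, was 567.8 in the depleted-labelled array and 391.9 in the wildtype-labelled array, a log2 ratio of 0.53 or 1.44-fold. The separate kept probe set for its copy kdm3a.S read 566.2 and 464.8 in the same order, a log2 ratio of 0.28. Both copies were thus higher in the depleted-labelled array. Another probe set of kdm3a.S, which was not kept, read 18.2 in the depleted-labelled array and 12.9 in the wildtype-labelled array. Both readings were under the floor and give no direction. Across the alternative settings kdm3a.L ran from 0.50 to 0.53 and kdm3a.S from 0.14 to 0.28. The value of 0.14 came from the unfiltered data, where this dim set was counted.

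The other demethylases stayed within the pooled SD between probe sets, as did 58.3% of all kept genes. The gene of kdm1a.S, known as LSD1, had 2 probe sets with log2 ratios of 0.08 and 0.19. For kdm2b.L, which binds CpG islands, the log2 ratio was 0.04, and for kdm7a.S it was -0.08. Of the 5 kept demethylase genes 4 were above 0, with a median of 0.14.

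Genes of DNA methylation were led by dnmt1, the maintenance methyltransferase. The signal of dnmt1.L was 141.3 in the depleted-labelled array and 135.6 in the wildtype-labelled array, and that of dnmt1.S was 134.8 and 133.0, so the copies gave log2 ratios of 0.05 and 0.01. The methyl-CpG binding gene mbd1.S read 312.0 in the depleted-labelled array and 400.0 in the wildtype-labelled array, a log2 ratio of -0.37, while mbd1.L read 778.5 and 810.9, a log2 ratio of -0.07. Both mbd1 copies were below 0, and only that of mbd1.S lay outside the pooled SD.

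Bromodomain genes of the BET family, which bind acetylated histones, gave log2 ratios of 0.04 for brd2.S and -0.30 for brd3.S. The signals of brd3.S were 316.9 in the depleted-labelled array and 386.8 in the wildtype-labelled array.

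HMG proteins are small abundant proteins that bend DNA or bind nucleosomes. Their 8 kept genes all lay within the pooled SD between probe sets, as did 58.3% of all kept genes. The signals of hmgn2.L were 9611.4 in the depleted-labelled array and 9988.3 in the wildtype-labelled array, and those of hmgn2.S were 8935.7 and 9246.4. Their log2 ratios were both -0.06, and turned to 0.14 for hmgn2.L and 0.13 for hmgn2.S after quantile normalization. Log2 ratios were -0.13 for hmgn1.S, -0.06 for hmgb3.L, -0.17 for hmgb3.S and -0.13 for the AT-hook gene hmga2.L.

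The 2 copies of hmgb2 were the HMG genes above 0. Over 3 probe sets hmgb2.S had a mean log2 ratio of 0.17, with all 3 between 0.09 and 0.25. In hmgb2.L the 2 probe sets disagreed, at 0.43 and -0.01. The median of the 8 HMG genes was -0.06, and it turned to 0.08 after quantile normalization and to 0.05 after a loess fit on mean signal, so the group has no settled direction. Some HMG probe sets end in _x_at or _s_at, names that Affymetrix gives to sets that can read related transcripts: hmgb3.L has only such a set, hmgn1.S has only such a set, and hmgb3.S has 1 of its 2.

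Histone chaperones gave 1 value on each side of 0. The log2 ratio was 0.23 for chaf1a.L, the large subunit of chromatin assembly factor 1, with 251.6 in the depleted-labelled array and 212.5 in the wildtype-labelled array. It was -0.16 for asf1b.L, a carrier of new histones.

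The naming rule also took genes outside these classes. The PHD finger gene phf13.S, a reader of methylated histone H3, read 410.5 in the depleted-labelled array and 301.2 in the wildtype-labelled array, a log2 ratio of 0.44 or 1.35-fold. The dim phf20l1.L read 94.8 and 74.1 in the same order, a log2 ratio of 0.35, while the related phf20.S was at -0.13. The splicing factor gene phf5a.L, with 2 probe sets at log2 ratios of -0.09 and -0.21, and the DNA end resection gene rbbp8.L, at -0.15, share a family name with chromatin genes but act elsewhere.

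Copies from both subgenomes were kept for 10 chromatin genes. In 8 of the 10 pairs the log2 ratios of the copies had the same sign, as they did in 61.6% of 524 pairs over all kept genes. The size of the difference between copies had a median of 0.16 on the log2 ratio scale in the chromatin pairs and 0.21 in all pairs. The pairs of opposite sign were hdac1 and eed, and the widest apart was cbx3, by 0.39. Some of these signs were not settled. Copies such as cbx3.L, prmt1.L and hmgb3.S, and also hdac1.S and eed.S, changed sign under other settings of the processing. Copies are similar in sequence and their probe sets can share signal, so a pair is not an independent repeat. Over all kept members the 37 .L genes had a median log2 ratio of 0.03 and the 25 .S genes one of -0.06.

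**Figure D4:**
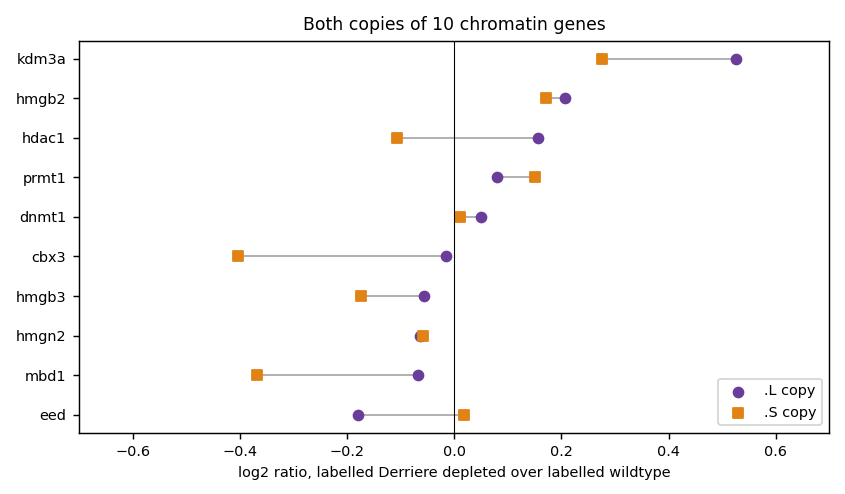
Log2 ratios (depleted-labelled array over wildtype-labelled array) of the .L copy (purple circles) and the .S copy (orange squares) of 10 chromatin genes with both copies kept, ordered by the .L value. The copies of kdm3a lie furthest to the right, at 0.53 and 0.28, and those of cbx3 are furthest from each other.

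The remaining 19 of the 82 genes had no kept probe set. Their 23 probe sets read between 1.2 and 79.8, and 11 of the 23 were under the floor in 1 or both arrays. They were hdac2.S, hdac9.S and hdac10.L, the sirtuins sirt2.S and sirt3.2.L, the SWI/SNF scaffold smarcc2.L, the DNA annealing ATPase smarcal1.L, the NuRD gene mbd2.S, kmt5a.L, kmt5b.S, kdm6a.S, setd4.L, setd6.L, ing1.S, ing5.L, phf12.S and phf23l.L besides cbx2.L and phf1.L. None of the probe sets that were not kept reached 100 in either array. The log2 ratios of the 23 ran from -0.78 to 0.38 and rest on signals where MAS5 is noisy. A low signal does not show that a transcript was absent.

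A list of partner proteins that the name rule does not take, such as BAF subunits, Sin3 and NuRD partners and other histone methyltransferases, gave 44 kept genes. Of these 0 were higher and 1 was lower by 1.5-fold or more, or 2.27% in all, against 5.00% of all kept genes. The median log2 ratio was 0.02, with 23 genes above 0 and 21 below. At the lower threshold of 0.32 on the log2 scale 5 were higher and 6 lower, or 25% of the list, against 26.1% of all kept genes.

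The gene past 1.5-fold was suv39h2.L, a methyltransferase that writes the mark HP1 reads, with 321.3 in the depleted-labelled array and 487.0 in the wildtype-labelled array, a log2 ratio of -0.61. The related suv39h1.L, named after its value was seen, read 330.7 and 419.8 in the same order, a log2 ratio of -0.35. The Polycomb ubiquitin ligase gene ring1.L followed at -0.58, with 73.2 in the depleted-labelled array and 109.0 in the wildtype-labelled array, while its counterpart rnf2.L, also named after its value was seen, was at -0.01. The other kept Polycomb genes of the list, likewise named after their values were seen, were below 0 too. Accessory factors of the H3 methyltransferase, mtf2.S and aebp2.S, had log2 ratios of -0.39 and -0.20. The 3 probe sets of mtf2.S ran from -0.70 to -0.06. Log2 ratios of pcgf1.L and rybp.L were -0.16 and -0.08.

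The third largest ratio of the list was ssrp1.S, a subunit of the histone chaperone FACT, at 0.41 with signals of 548.8 in the depleted-labelled array and 411.7 in the wildtype-labelled array. The other FACT subunit supt16h.S, named after its value was seen, lay on the other side of 0 at a log2 ratio of -0.31.

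Markers of the tissue were present in both arrays. The mesoderm genes tbxt.S, tbx6.L, msgn1.L and cdx4.L read from 360.8 to 2464.9 in the depleted-labelled array and from 363.7 to 2294.1 in the wildtype-labelled array, and myod1.S and the notochord gene not.L were also detected above the filter. Markers of other tissues were not at 0: the neural gene sox2.L read 380.0 in the depleted-labelled array and 573.6 in the wildtype-labelled array, and the epidermal keratin krt12.4.L read 968.1 and 690.3. Markers of the same tissue differed in direction. The log2 ratios were -0.60 for sox2.L, -0.44 for ncam1.S, 0.03 for sox3.L and 0.19 for sox3.S. In epidermis they were 0.48 for krt12.4.L, 0.63 for dlx3.L and 0.52 for dlx3.S, but -0.15 for krt12.4.S and -0.24 for itln1.L. Of all 4541 kept genes 2232 were above 0 and 2309 below. Among kept genes of the lists, 8 of 12 epidermal genes were above 0 with a median log2 ratio of 0.28. In the neural list 8 of 12 genes were below 0 with a median of -0.16, and 11 of 18 muscle and somite genes were below 0 with a median of -0.18. In the muscle and somite list 6 of 18 genes, or 33.3%, were lower by 1.5-fold or more and 0 were higher, against 3.06% lower of all kept genes. The fast myosin light chain gene mylpf.L read 1513.6 in the depleted-labelled array and 2386.3 in the wildtype-labelled array, a log2 ratio of -0.67. The troponin genes tnnt3.S at -0.78 and tnnc2.S at -0.68 and the segmentation gene mespa.S at -0.68, named after their values were seen, were also among the 6. By contrast, the muscle markers myod1.L, myod1.S and myf5.L had log2 ratios of 0.06, 0.07 and -0.09. The log2 ratios of tbxt.S, tbx6.L, msgn1.L and cdx4.L lay between -0.02 and 0.21. The cell cycle list, whose genes are active in dividing cells as many chromatin genes are, had 28 of 44 above 0 and a median of 0.11. The ratio of 3' to 5' signal, a measure of RNA quality and labelling, was lower in the depleted-labelled array for 3 of 4 controls. It was 3.54 for beta-actin, 24.3 for Gapd and 126.3 for a3Act there, against 4.74, 32.3 and 206.5 in the wildtype-labelled array, while a1Act went the other way with 71.6 in the depleted-labelled array and 65.3 in the wildtype-labelled array. The 5' signal of a3Act was 33.5 in the depleted-labelled array and 23.5 in the wildtype-labelled array, and that of Gapd was 38.3 and 36.5. These lay under the signal filter of 74.3, so the ratios of both controls rest on dim readings. The part of cell makeup, division and RNA quality in the chromatin values was not tested.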

How the data were processed

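The authors deposited linear intensities, 1 per probe set of an Affymetrix Xenopus laevis array, which MAS5 had produced, per the submitters' processing notes. Its version, its scaling target and any detection calls are not stated there. Labelled cRNA was made from 6 µg of total RNA, per the labels' protocols. Of 15611 rows, 120 control probe sets were left out. Genes were named from the platform annotation: 9304 probe sets had 1 symbol, 195 several and 5992 none, and the current gene table changed no member. No coordinates or sequences are printed.

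A floor of 19.7, the 25th percentile of all signals, was applied before taking log2. The 7746 probe sets whose mean log2 signal reached the median were kept, and their log2 ratios were centred by subtracting the median of 0.0091. A gene is the mean of its kept probe sets. With 1 array per group, called means past a fixed fold, here 1.5-fold. The members, lists and groups were chosen with earlier results of these data known.

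Members described were all kept genes past 1.5-fold, the 3 largest ratios and 2 brightest genes of each group, all pairs of kept copies, and the 3 largest of the partner list. Members outside these were also given, after their values were seen. The procedure was tested on simulated data with planted changes of 2-fold or more. These were larger than the difference of any kept chromatin gene, so the simulation does not bear on differences of the size described here. Python 3.11.15, numpy 2.4.6, pandas 2.3.3, scipy 1.17.1, statsmodels 0.14.6 and matplotlib 3.10.9 were used.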

Additional observations from a re-analysis of the deposited data

How the results depend on the processing

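The results were recomputed without a floor, with the floor moved to the 40th percentile or replaced by an added constant, uncentred, after quantile normalization or a loess fit on mean signal, unfiltered or with the filter moved to the 75th percentile, at other thresholds, with list means, with each gene's brightest probe set, with probe sets naming both homeologs, with current symbols and, added after the data were seen, leaving out probe sets named _s_at or _x_at. The count of chromatin genes past 1.5-fold was 0 higher and 0 lower in all of them except 3. A lower threshold of 0.32 on the log2 scale gave 4 higher and 4 lower, the brightest probe set gave 1 higher (chd7.L at 0.60), and the unfiltered data gave 1 lower (cbx2.L at -0.77, with a signal under the floor). The median log2 ratio of the chromatin genes was 0.0207 after quantile normalization and 0.0303 after loess, and the cause was not tested. It lay from -0.01 to 0.00 in the other alternatives. Over all kept genes the counts past 1.5-fold were 88 higher and 139 lower, against 66 and 92 of 4542 with the added constant, 179 and 299 of 7531 unfiltered, and 27 and 48 of 2527 under the stricter filter, where fewer genes were tested. Of 731 log2 ratios of single chromatin genes under the alternatives, 1 moved by the pooled SD between probe sets or more, that of chd7.L with its brightest probe set. Smaller moves still changed the sign of some genes near 0. The log2 ratio of prmt1.L went from 0.08 to -0.13 with its brightest probe set, and that of hmgn2.L from -0.06 to 0.14 after quantile normalization. Of 205 group medians, 9 moved by more than a standard error taken over the group's genes. That error reflects spread between genes and not between arrays, and a group of 1 gene has none. Moving or removing the floor could change little, because every kept probe set lay above it. Current symbols and probe sets naming both homeologs left the ratios of single genes as they were. Leaving out the centring shifted each by only 0.0091. The brightest probe set could change only the 10 genes with 2 or 3 kept sets. Many of the 731 ratios thus had little room to move. No paired analysis was possible because there was only 1 array per label, and no replicate could be left out.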

Other observations

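Probe sets that name several genes were not members, and besides that for cbx3 they read as follows. The nucleosome-binding gene hmgn3 was read only by probe sets naming both of its copies, and the 2 of them had log2 ratios of -0.19 and -0.20, with signals of 5730.9 and 6070.4 in the depleted-labelled array and 6488.5 and 6924.7 in the wildtype-labelled array. A probe set shared by hmgn1.S and a second symbol, tmem126a.L, had a log2 ratio of 0.05, against -0.13 for the set that names hmgn1.S alone. The probe set for both copies of ing5 read 55.0 in the depleted-labelled array and 84.3 in the wildtype-labelled array, a log2 ratio of -0.63 at a signal under the filter.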
